A study of Mus musculus with 20 samples.

Results

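The 27 genes described here carry out cholesterol synthesis and its regulation, and they were taken by symbol from a table of 24411 genes measured in cultured mouse cerebellar granule neurons. All 27 were in the table, and all 27 passed the filter on low counts, along with 15284 genes in all. By role, 8 catalyse the mevalonate steps that build isoprenoid units, 12 catalyse squalene synthesis and the steps on the sterol ring, and 7 regulate sterol synthesis or move cholesterol. The study asked whether the enzymatic activity of KDM6B, a histone demethylase that removes the repressive mark on lysine 27 of histone H3, is enough to restore gene expression after loss of the mouse protein. It has 20 libraries, 5 in each of 4 groups. Active rescue cultures received an shRNA (a short hairpin RNA that lowers its target's mRNA) against mouse Kdm6b together with an active human KDM6B enzymatic domain. Dead rescue cultures received the same shRNA with a dead human KDM6B enzymatic domain. The shKdm6b cultures received the shRNA against Kdm6b with no rescue domain, and control cultures are labelled only as control, with no statement of what they received. Infection is given for day 1 in vitro, the antimitotic AraC was added on day 2, and RNA was harvested on day 7. The rescue constructs hold the enzymatic domain and not the whole protein. No label or design text used here gives the strain or age of the mice, or says whether a library is 1 animal, a pool or 1 dish. The spread behind each p-value is therefore that of libraries, and may be technical.

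Cholesterol is made from acetyl-CoA through mevalonate, the isoprenoid diphosphates, squalene and lanosterol, and the branch at farnesyl diphosphate also feeds dolichol, ubiquinone and protein prenylation. The enzymes are controlled together: when sterols in the endoplasmic reticulum are low, the escort protein SCAP carries the membrane-bound transcription factors SREBP1 and SREBP2 to the Golgi, where they are cut and released to the nucleus. When sterols are high, INSIG proteins hold SCAP back, and Insig1 is itself an SREBP target, so its mRNA is widely used as a readout of SREBP activity. Brain cholesterol is made locally, and astrocytes are held to supply much of what mature neurons use.

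Promoter sequence was available for 23 of the 27 genes, as 31 stretches of the 250 bases before each RefSeq start site (GRCm38.p6). Fdps, Fdft1, Sqle and Stard4 were not matched. The core of a sterol response element was searched as CACNCCAC on both strands, and 3 of 31 promoters held it, those of Insig1, Hmgcs1 and Acat2, against 5.29% of all 32851 promoters. The CCAAT box (CCAAT, both strands), bound by NF-Y, a known partner of SREBPs, was in 21 of 31, against 33.8% of all promoters. The GC box (GGGCGG, both strands) was in 24 of 31, against 32.7% of all. A match is a description of the letters and not a bound site. The 3 promoters with the core are shown because they hold the element that SREBPs are known to bind and include the 1 gene called lower in the comparisons that follow. They are printed 5′ to 3′ on the gene's strand up to the RefSeq start, or to the first base that GENCODE M21 places in an exon where that comes earlier, with cores and CCAAT boxes in capitals (a box on the other strand reads ATTGG, and a core on the other strand is written as its reverse complement). The Insig1 core lies inside the first GENCODE exon, 9 bases before the RefSeq start, and is given as a short stretch of its own.
Insig1, chr5:28071162-28071362, + strand: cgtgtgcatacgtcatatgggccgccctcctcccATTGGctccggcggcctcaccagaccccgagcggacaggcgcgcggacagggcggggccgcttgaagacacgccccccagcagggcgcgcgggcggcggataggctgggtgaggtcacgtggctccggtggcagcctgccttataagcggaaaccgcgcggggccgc
Insig1 core, chr5:28071382-28071411, + strand: gggcgcggtacgtgtagtgtcGTGGCGTGt
Hmgcs1, chr13:119690101-119690350, + strand: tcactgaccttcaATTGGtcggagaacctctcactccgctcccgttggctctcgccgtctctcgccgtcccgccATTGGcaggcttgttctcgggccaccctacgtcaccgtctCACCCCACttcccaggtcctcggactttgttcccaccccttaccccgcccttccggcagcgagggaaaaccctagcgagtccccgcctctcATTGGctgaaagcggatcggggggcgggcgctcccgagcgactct
Acat2, chr17:12960748-12960975, - strand: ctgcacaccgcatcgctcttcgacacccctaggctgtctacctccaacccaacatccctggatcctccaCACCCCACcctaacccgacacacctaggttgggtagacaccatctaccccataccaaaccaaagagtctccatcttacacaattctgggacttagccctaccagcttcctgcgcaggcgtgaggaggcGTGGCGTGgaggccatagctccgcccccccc

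Library totals ran between 14200745 and 21179300 estimated reads, and the lowest value of any of the 27 genes was 78 reads, for Stard4 in control library 4. Levels are given as CPM, counts scaled by the library total and by TMM, a normalisation that sets the bulk of genes equal between libraries. Libraries of the same number in the 4 groups deviated together for every pair, with correlations of 0.361 to 0.881, so 2 fits are given: an unpaired fit, and a paired fit that takes the library number as a block. What the number stands for is not stated. The 4 libraries numbered 4 stood apart from the rest for many genes, with a lower sum of granule neuron and a higher sum of astrocyte marker reads. Results that change without them are given both ways. Numbers 4 and 5 together differed from numbers 1 to 3 in Rn45s RNA (2127 to 5816 CPM, against 24208 to 76079 CPM). The same split was seen in Malat1 RNA (217 to 997 CPM, against 4422 to 6888 CPM). The source of this split and its part in the sterol gene values were not tested. Granule neuron markers were present in every library, with a sum over 10 markers between 1775 and 6125 CPM, but so were markers of other cells, among them 8 fibroblast and meningeal genes at 5018 to 32327 CPM and 14 astrocyte and Bergmann glia genes at 1535 to 9401 CPM. In bulk samples, fewer cells of a type and less RNA per cell cannot be told apart. Kdm6b averaged 212 ± 109 CPM in active rescue, 176 ± 92.2 CPM in dead rescue, 83.0 ± 28.3 CPM in shKdm6b and 144 ± 40.5 CPM in control libraries (SD, n = 5 each). In shKdm6b against control libraries, it was lower in the paired edgeR fit (log2 fold change -0.88 ± 0.21, adjusted p = 0.0231) and did not pass in the unpaired edgeR fit (-0.79 ± 0.43, adjusted p = 1.00). An exact two-sided permutation test over the unpaired libraries gave p = 0.0317. In the rescue libraries, reads from the human domain may count toward it.

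In shKdm6b against control libraries, 20 of the 27 sterol genes had a negative log2 fold change, and 1, Insig1, passed the test, in the paired fit only. The median over the 27 genes was -0.12, against a median of 0.01 over all genes tested, of which 52.1% had a positive log2 fold change in the paired fit. In the unpaired edgeR quasi-likelihood fit, 0 of 27 had an adjusted p under 0.05, with 0.00654% of all genes called. An unadjusted p under 0.05 was found there for 0 of 27, against 477 of all 15284 genes tested. The paired fit called 1 of 27, with 4.14% of all genes called in either direction and 2.41% called lower. A share of 1 in 27 is close to that background and is no result about the 27 genes as a set. At an unadjusted p under 0.05 the paired fit had 7 of 27, against 2283 of all 15284 genes tested. Without the 4 libraries numbered 4, the paired fit called 4 of 27 (Idi1, Sc5d, Insig1 and Stard4, all lower), with 6.5% of all genes called. No gene had groups that did not overlap.

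Insig1, the endoplasmic reticulum protein that retains SCAP (chr5:28071363-28078662, + strand, mm10), had 109, 115, 124, 75.9 and 103 CPM in shKdm6b libraries 1 to 5, against 129.6, 136, 149, 96.7 and 167 CPM in control libraries 1 to 5. The shKdm6b library was the lower one in each of the 5 same-numbered pairs, and the groups overlapped only through control library 4. The pairs differed by -0.25, -0.24, -0.26, -0.35 and -0.69 on the log2 scale. Insig1 averaged 106 ± 18.3 CPM in shKdm6b and 136 ± 25.9 CPM in control libraries (SD, n = 5 each). The paired fit gave a log2 fold change of -0.36 ± 0.07 (SE; 95% interval -0.51 to -0.20; adjusted p = 0.00753), a level 0.781 times that of control. The unpaired fit gave -0.36 ± 0.18, with an unadjusted p of 0.057 and an adjusted p of 1.00, and an exact two-sided permutation test on the unpaired libraries gave p = 0.0873. With any single library left out, the paired call held in 10 of 10 fits, with log2 fold changes between -0.40 and -0.30 and adjusted p between 0.00958 and 0.0349. It was -0.38 ± 0.08 without the 4 libraries numbered 4 (adjusted p = 0.00555). Within the libraries numbered 1 to 3 the value was -0.24 (adjusted p = 0.130), and within those numbered 4 and 5 it was -0.53 (adjusted p = 0.608), both in paired edgeR fits. The sum over fibroblast markers was also lower in shKdm6b in 5 of 5 pairs, by a mean log2 ratio of -0.31 ± 0.11 (SD), and its part in the Insig1 difference was not tested.

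**Figure D1:**
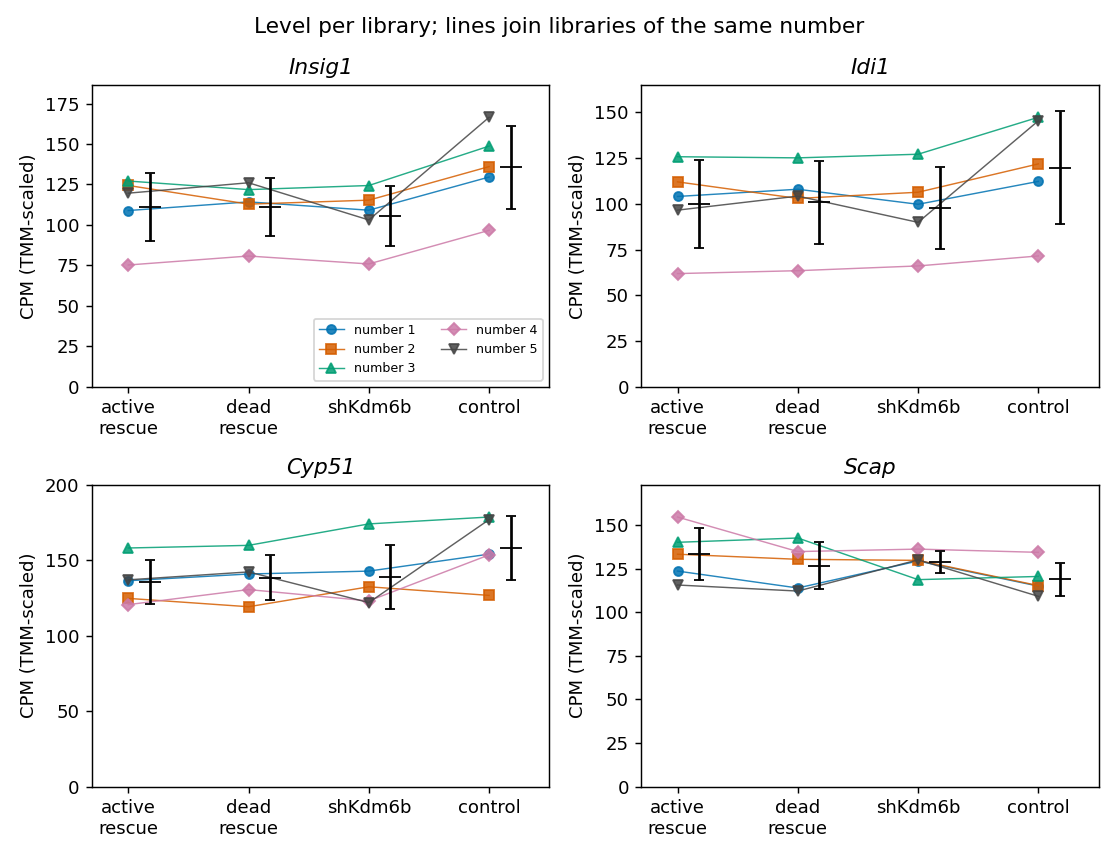
CPM of Insig1, Idi1, Cyp51 and Scap in each library of the active rescue, dead rescue, shKdm6b and control groups, with lines joining libraries of the same number and black bars for the mean ± SD (n = 5 each). Control libraries of Insig1 lie above the other libraries of their own number in all 5 numbers, while library 4 is low in every group.

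Of the mevalonate genes, 7 of 8 had negative log2 fold changes in shKdm6b against control libraries, with a median of -0.13, and 0 of 8 passed the test. Idi1, the isomerase that makes dimethylallyl diphosphate (chr13:8885501-8892451, + strand), had 99.7, 106, 127, 66.1 and 89.9 CPM in shKdm6b libraries 1 to 5, against 112, 122, 147, 71.5 and 145 CPM in control libraries 1 to 5. Each shKdm6b library was below the control library of its number, with the widest gap in number 5. Its log2 fold change was -0.28 ± 0.08, just short of the threshold (adjusted p = 0.0591, paired edgeR fit), and adjusted p ran from 0.0343 to 0.226 with 1 library left out. It passed without shKdm6b library 4 (0.0343) or without control library 4 (0.0475), and without all 4 libraries numbered 4 it was at -0.34 ± 0.08 (0.0202). Hmgcs1, the cytosolic synthase early in the mevalonate steps, was the most abundant of the 27 genes per kilobase of exon, at 87.0 CPM per kilobase in control libraries. It had 417, 432, 382, 280.3 and 308 CPM in shKdm6b libraries, against 418, 418, 427, 293 and 443 CPM in control libraries. The pairs numbered 1, 2 and 4 lay close together and number 5 lay furthest apart, and the log2 fold change was -0.15 ± 0.10 (adjusted p = 0.547). Among the other mevalonate genes, Fdps, the farnesyl diphosphate synthase, was at -0.25 and Ggps1, which makes the geranylgeranyl donor, at -0.18, each lower in 5 of 5 pairs. The thiolase Acat2 (-0.12), the kinases Mvk (-0.07) and Pmvk (0.02) and the decarboxylase Mvd (-0.04) were nearer to 0. Acat2 estimates were not whole numbers in 20 of 20 libraries, so its level is uncertain. All of these had an adjusted p above 0.05 in both fits.

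The squalene and sterol ring steps had 10 of 12 negative log2 fold changes in shKdm6b against control libraries, with a median of -0.16, and 0 of 12 passed the test. Fdft1, the squalene synthase at the first step committed to sterols, had 82.2, 73.6, 91.5, 84.5 and 66.0 CPM in shKdm6b libraries, against 81.5, 93.2, 100.04, 107 and 113 CPM in control libraries. Pair 1 was level and pair 5 differed most, and the log2 fold change was -0.32 ± 0.13 (adjusted p = 0.26). Fdft1 estimates were not whole numbers in 20 of 20 libraries, as happens where reads are shared between similar sequences, and an exon of Fdft1 overlaps Ctsb on the other strand, so its level is uncertain. Cyp51, the lanosterol demethylase, had 143, 133, 174, 123 and 122 CPM in shKdm6b libraries, against 154, 127, 179, 154 and 177 CPM in control libraries. It was lower in 4 of 5 pairs, with pair 2 slightly the other way, and the log2 fold change was -0.19 ± 0.08 (adjusted p = 0.236). Its exons overlap Akap9 on the other strand.

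The C4 demethylation steps that follow lay on the same side. Msmo1, the methylsterol oxidase, had 87.5, 81.5, 107, 77.2 and 69.1 CPM in shKdm6b libraries, against 97.0, 90.8, 116, 88.0 and 102 CPM in control libraries, lower in all 5 pairs (log2 fold change -0.23 ± 0.09, adjusted p = 0.177). Nsdhl, the dehydrogenase of the same reaction series, had 32.0, 35.8, 44.7, 23.3 and 35.1 CPM in shKdm6b libraries, against 40.9, 33.2, 51.5, 35.0 and 43.4 CPM in control libraries. Only pair 2 ran the other way for Nsdhl, and its log2 fold change was -0.27 ± 0.09 (adjusted p = 0.117). Hsd17b7, the reductase that completes the series, was at -0.13. Sc5d, the sterol desaturase near the end of the pathway, had 44.2, 47.0, 48.6, 23.0 and 39.1 CPM in shKdm6b libraries, against 54.97, 56.8, 59.2, 25.5 and 64.9 CPM in control libraries. It was lower in all 5 pairs, at -0.35 ± 0.12 (adjusted p = 0.132), and it passed once the libraries numbered 4 were left out (-0.42 ± 0.12, adjusted p = 0.0421). Lss, which closes the ring to lanosterol, had 48.7, 52.7, 52.4, 21.4 and 52.0 CPM in shKdm6b libraries, against 46.0, 55.6, 60.9, 26.2 and 73.9 CPM in control libraries. Library 4 of both groups was far below the rest for Lss, and the log2 fold change was -0.20 ± 0.12 (adjusted p = 0.488). Sqle, the squalene epoxidase and a rate-limiting enzyme, averaged 189 ± 18.3 CPM in shKdm6b and 186 ± 14.8 CPM in control libraries (SD, n = 5 each), with a 95% interval of -0.16 to 0.19 for the log2 fold change. The reductases Tm7sf2 (-0.08), Lbr (-0.07) and Dhcr7 (-0.09) and the isomerase Ebp (0.05) had intervals that included 0.

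The regulators did not share a sign: 3 of 7 log2 fold changes were negative in shKdm6b against control libraries, with a median of 0.04, and Insig1 was the 1 of 7 that passed. The paralog Insig2 averaged 44.7 ± 5.30 CPM in shKdm6b and 43.5 ± 5.72 CPM in control libraries (log2 fold change 0.04 ± 0.08, adjusted p = 0.906). Scap, the escort that INSIG proteins hold back, had 129.5, 129.9, 119, 136 and 130.2 CPM in shKdm6b libraries, against 115, 115, 121, 134 and 109 CPM in control libraries. Scap was the higher one in shKdm6b in pairs 1, 2, 4 and 5, and its log2 fold change was 0.12 ± 0.07 (adjusted p = 0.479). Srebf2, which encodes SREBP2, the factor that favours cholesterol genes, had 339, 347, 331, 111 and 348 CPM in shKdm6b libraries, against 269, 313, 326, 133 and 372 CPM in control libraries. Number 4 stood far below the others in both groups, the pairs differed in direction, and the log2 fold change was 0.04 ± 0.14 (adjusted p = 0.947). Srebf1, for SREBP1, was at -0.03, and the efflux pump gene Abca1, a target of liver X receptors, at 0.11. Stard4, a soluble sterol carrier and SREBP2 target, had 35.3, 44.7, 40.5, 4.46 and 61.4 CPM in shKdm6b libraries, against 45.7, 65.2, 60.0, 4.61 and 111 CPM in control libraries. All 5 pairs were lower in shKdm6b, but the level in number 4 was a small fraction of that elsewhere, and the paired log2 fold change of -0.54 ± 0.30 did not pass (adjusted p = 0.447). Without the libraries numbered 4 it was -0.61 ± 0.16 (adjusted p = 0.0319), and in a paired fit of the shKdm6b and control libraries alone it was -0.53 ± 0.09 (adjusted p = 0.00483). Both of these fits also called more of all genes than the paired fit on all libraries.

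**Figure D2:**
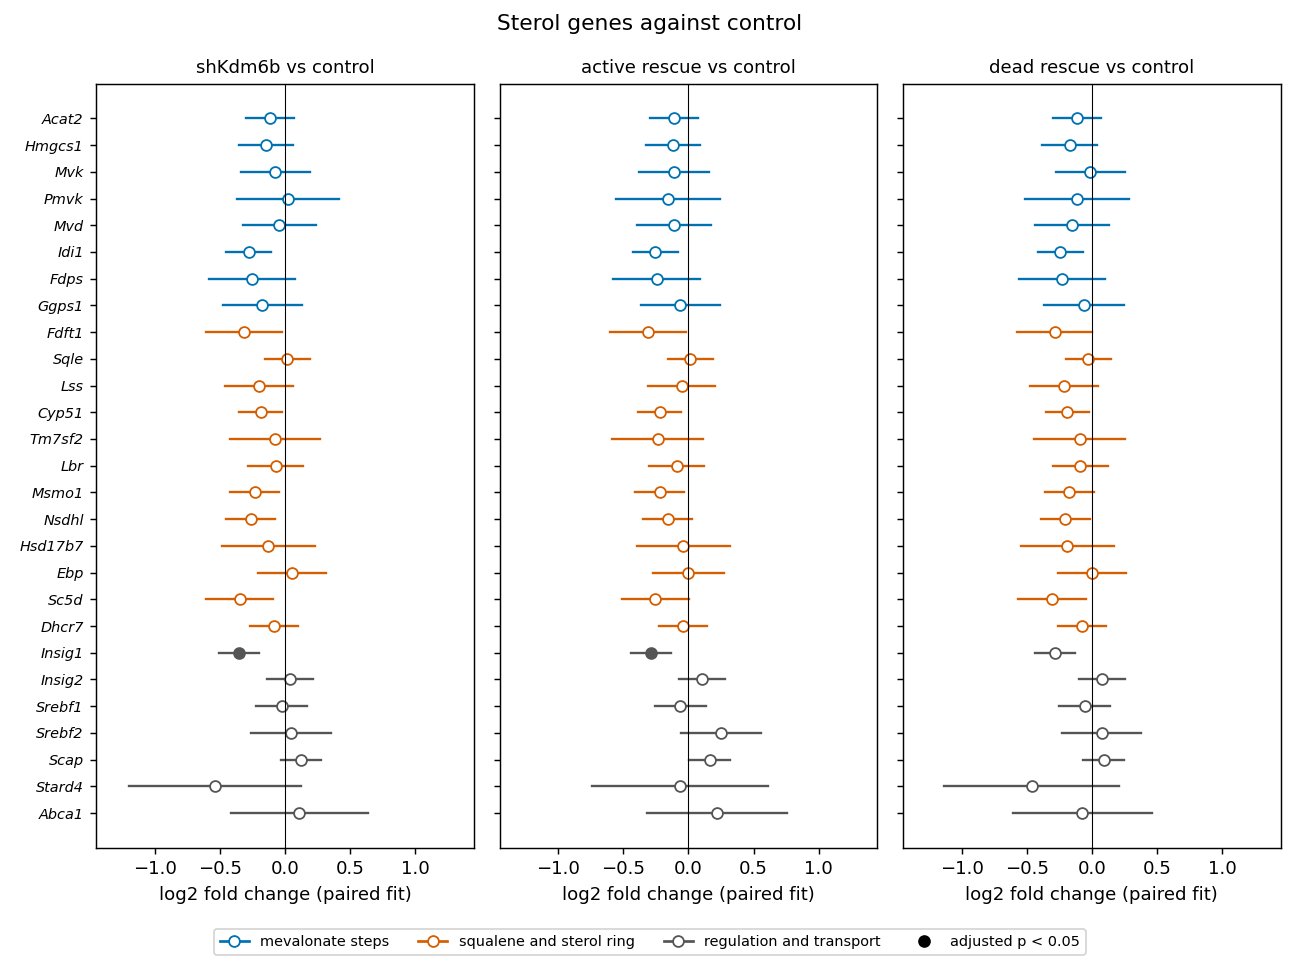
Log2 fold change of each of the 27 genes with its 95% interval in the paired fit, for shKdm6b, active rescue and dead rescue, each against control; filled points have an adjusted p under 0.05. Insig1 is filled in the shKdm6b and active rescue panels, and most mevalonate and sterol ring genes lie between -0.40 and 0.

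The negative fold changes were not spread evenly over the 5 pairs. Of the 27 genes, 15, 12, 21, 22 and 22 were lower in shKdm6b in pairs 1 to 5, with median log2 differences of -0.04, 0.04, -0.11, -0.19 and -0.29. Pairs 1 and 2 showed next to no shift over the genes, and pair 5 the largest. Lower in all 5 pairs were 7 of 27 genes (Idi1, Fdps, Ggps1, Msmo1, Sc5d, Insig1 and Stard4) and higher in all 5 were 0, against 11.9% and 12.9% of all genes tested. Number 5 was also where fibroblast markers were highest (24740 to 32327 CPM, against 5018 to 17918 CPM in numbers 1 to 3) and astrocyte markers lowest (1535 to 2022 CPM), and the part of these in the differences of pair 5 was not tested.

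**Figure D3:**
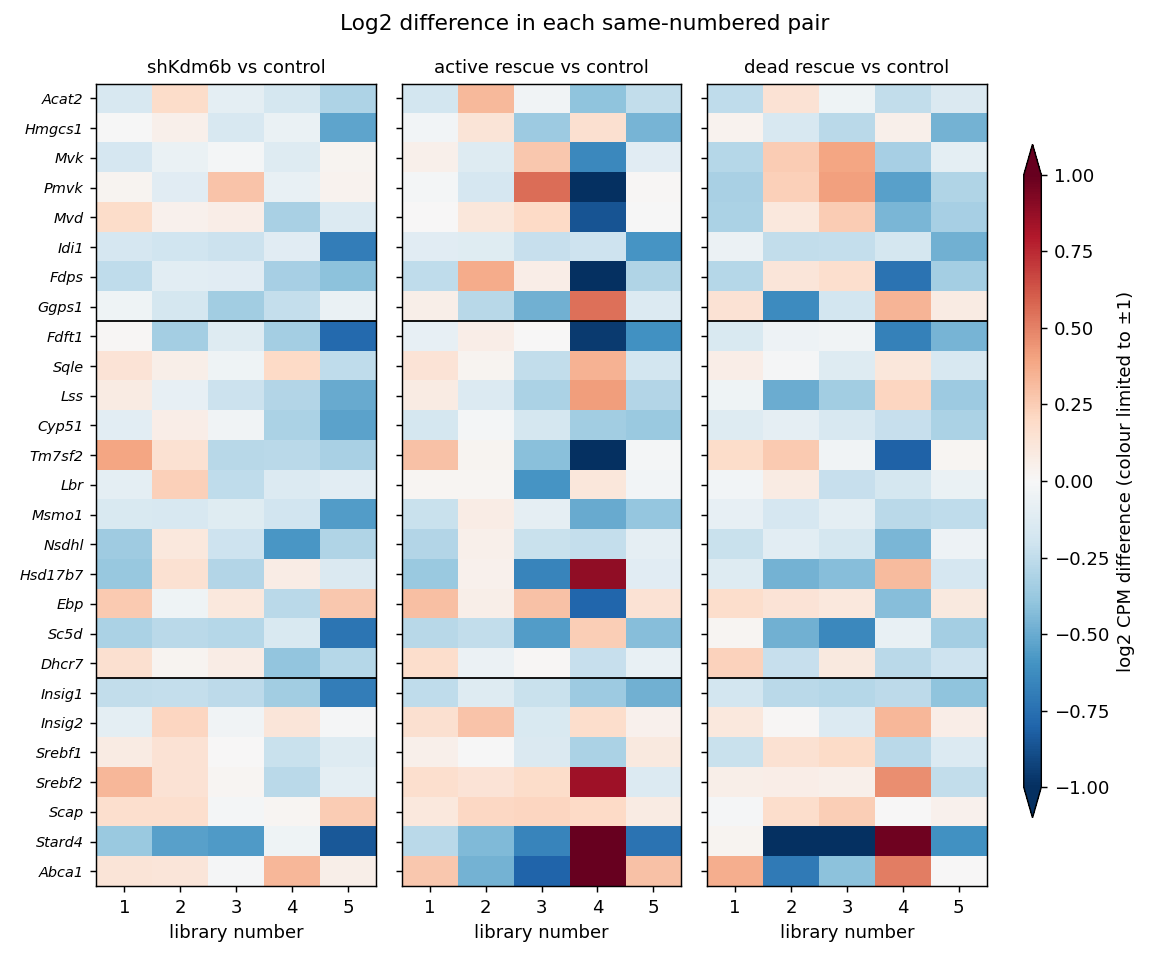
Log2 CPM difference of each gene in each same-numbered pair for shKdm6b, active rescue and dead rescue, each against control; blue is lower than control, red higher, and lines part the 3 roles. The row of Insig1 is blue in all 15 pairs, and pair 4 of active rescue holds the most extreme colours of that group in either direction.

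None of the 27 genes passed the test between either rescue group and shKdm6b alone, or between the rescue groups, in the edgeR and DESeq2 fits. Active rescue against shKdm6b gave 0 of 27 called in the paired fit, with 0.00654% of all genes called, and 0 of 27 in the unpaired fit, with 0.0% of all genes called. Dead rescue against shKdm6b gave 0 of 27 in both fits, with 0.0% of all genes called in each. Active rescue against dead rescue, which sets the active against the dead enzymatic domain, gave 0 of 27 in the paired fit, with 0.00654% of all genes called, and 0 of 27 in the unpaired fit, with 0.0% of all genes called. At an unadjusted p under 0.05 the number was also 0 of 27 in each of these 3 comparisons and in both edgeR fits. Over all 15284 genes tested, it was 577, 214 and 415 in the paired fit, in the same order, and 50, 25 and 37 in the unpaired fit. DESeq2 also called 0 of 27 with and without the block. Median log2 fold changes in the paired fit were 0.02, 0.00 and 0.01. These values do not show that the groups are alike. In each of the 3 comparisons, 25 of 27 genes had a 95% interval inside a 1.5-fold change in either direction, the exceptions being Stard4 and Abca1. The same held for 23 of 27 in shKdm6b against control libraries, where Insig1 was called, so this bound cannot tell a restored gene from an unrestored one. The median half-width was 0.26 on the log2 scale, against a median log2 fold change of -0.12 in shKdm6b against control libraries.

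Insig1 had 109, 124, 127, 75.3 and 119.6 CPM in active rescue libraries 1 to 5 and 114, 113, 122, 80.8 and 126 CPM in dead rescue libraries 1 to 5. All 10 lay below the control library of their number, and in number 5 both stood between shKdm6b and control. Its log2 fold change against shKdm6b was 0.07 ± 0.07 in active rescue (95% interval -0.09 to 0.22) and 0.07 ± 0.07 in dead rescue (95% interval -0.08 to 0.23), and active rescue differed from dead rescue by -0.01 ± 0.07 (95% interval -0.16 to 0.15). Lss had 48.6, 50.6, 49.0, 35.1 and 60.3 CPM in active rescue libraries, against 44.5, 39.5, 47.9, 30.4 and 57.4 CPM in dead rescue libraries. It was higher in active rescue in all 5 pairs (log2 fold change 0.16 ± 0.12, adjusted p = 1.00), as was Srebf2, which had 302, 344, 370.1, 239.7 and 339 CPM in active rescue, against 279, 328, 337, 184 and 314 CPM in dead rescue libraries (0.17 ± 0.14, adjusted p = 1.00). These were the 2 of 27 genes with one direction in all pairs, and both 95% intervals included 0, while 1.98% of all genes were lower and 3.49% higher in every pair.

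Set against control, both rescue groups had negative log2 fold changes for most of the 27 genes, and all 3 comparisons share the 5 control libraries. The unpaired fit called 0 of 27 genes in active rescue and 0 of 27 in dead rescue, with 0.0% of all genes called in each. The paired fit called 1 of 27 lower in active rescue, again Insig1, with 1.96% of all genes called and 0.87% called lower, and 0 of 27 in dead rescue, with 1.18% of all genes called. Insig1 was lower than control in 5 of 5 pairs in each rescue group, at -0.29 ± 0.07 in active rescue (adjusted p = 0.0461) and -0.28 ± 0.07 in dead rescue (adjusted p = 0.0649). The call in active rescue was lost in 10 of 10 fits that left out 1 library, with adjusted p between 0.0612 and 0.144. Without the 4 libraries numbered 4, the paired fit called 1 of 27 in active rescue, with 4.6% of all genes called, and 2 of 27 in dead rescue, with 2.48% of all genes called. Insig1 was then at -0.29 ± 0.08 in active rescue (adjusted p = 0.0382) and -0.30 ± 0.08 in dead rescue (adjusted p = 0.0461), and Stard4 in dead rescue was at -0.69 ± 0.16 (adjusted p = 0.0364).

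Over the 27 genes the median log2 fold change against control was -0.11 in active rescue, with 22 of 27 negative, and -0.12 in dead rescue, with 23 of 27 negative. Over all genes tested the medians were 0.0158 and 0.0035, with 53.8% and 50.9% of log2 fold changes positive. Among the mevalonate genes 8 of 8 were negative in both rescue groups, and among the squalene and sterol ring genes 11 of 12 in both. Idi1 had 104, 112, 126, 61.9 and 96.5 CPM in active rescue libraries and 108, 103, 125, 63.5 and 104 CPM in dead rescue libraries, below the control library of the same number in every case. Its log2 fold changes were -0.26 ± 0.08 (adjusted p = 0.123) and -0.24 ± 0.08 (adjusted p = 0.187) in active and dead rescue against control. Cyp51 had 137, 125, 158, 121 and 137 CPM in active rescue libraries and 141, 119, 160.0, 131 and 142 CPM in dead rescue libraries. All 10 were below the control library of their number, with log2 fold changes of -0.22 ± 0.08 (adjusted p = 0.177) and -0.19 ± 0.08 (adjusted p = 0.344). Scap ran the other way in active rescue, with 124, 133, 140.2, 155 and 116 CPM, above control in all 5 pairs (0.16 ± 0.07, adjusted p = 0.334), and had 114, 130.5, 143, 135 and 112 CPM in dead rescue libraries (0.09 ± 0.07, adjusted p = 0.78). In active rescue, 3 of 27 genes were lower in all 5 pairs and 1 higher, against 4.50% and 6.83% of all genes tested. In dead rescue, 6 of 27 were lower in all 5 pairs (Idi1, Fdft1, Cyp51, Msmo1, Nsdhl and Insig1), against 5.65% of all genes, and fibroblast markers were lower in 5 of 5 pairs there too, by a mean log2 ratio of -0.23 ± 0.09 (SD).

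The library number held far more of the variation than the group did. For the median sterol gene, the number accounted for 71.7% of the variance of log2 CPM and the group for 4.80%, close to the medians over all genes tested (71.7% and 4.26%). The group share was highest for Fdft1 (26.5%), Insig1 (22.4%), Cyp51 (21.9%) and Scap (20.9%). Number 4 stood apart for 10 of the 27 genes. The same count was not made over all genes tested, so it is no result about the 27 genes as a set. In 7 of them (Idi1, Ggps1, Lss, Sc5d, Insig1, Srebf2 and Stard4) every library numbered 4 lay below every other library, and in 3 (Pmvk, Tm7sf2 and Srebf1) every one lay above. Stard4 was the most extreme, at 4.46 to 19.7 CPM in number 4, against 29.0 to 111 CPM elsewhere. The SREBP genes split, with Srebf2 at 111 to 240 CPM in number 4 against 269 to 372 CPM elsewhere, and Srebf1 at 193 to 241 CPM against 86.7 to 136 CPM elsewhere. Within number 4 the active rescue library was the least far from the rest for several genes: it had 19.7 CPM of Stard4 and 30.2 CPM of Pmvk, against 4.61 and 70.9 CPM in control library 4. Summed astrocyte and Bergmann glia markers were 7777 to 9401 CPM in number 4, against 1535 to 5164 CPM in the other libraries, and granule neuron markers 1775 to 2841 CPM, against 3663 to 6125 CPM. Gfap alone held 4489 to 5480 CPM of the astrocyte sum in number 4. Not every marker followed its sum: Slc1a2 and Slc4a4 of astrocytes and Pax6 of granule neurons, among others, overlapped between number 4 and the other libraries. The part of these cell types in the sterol gene levels was not tested.

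**Figure D4:**
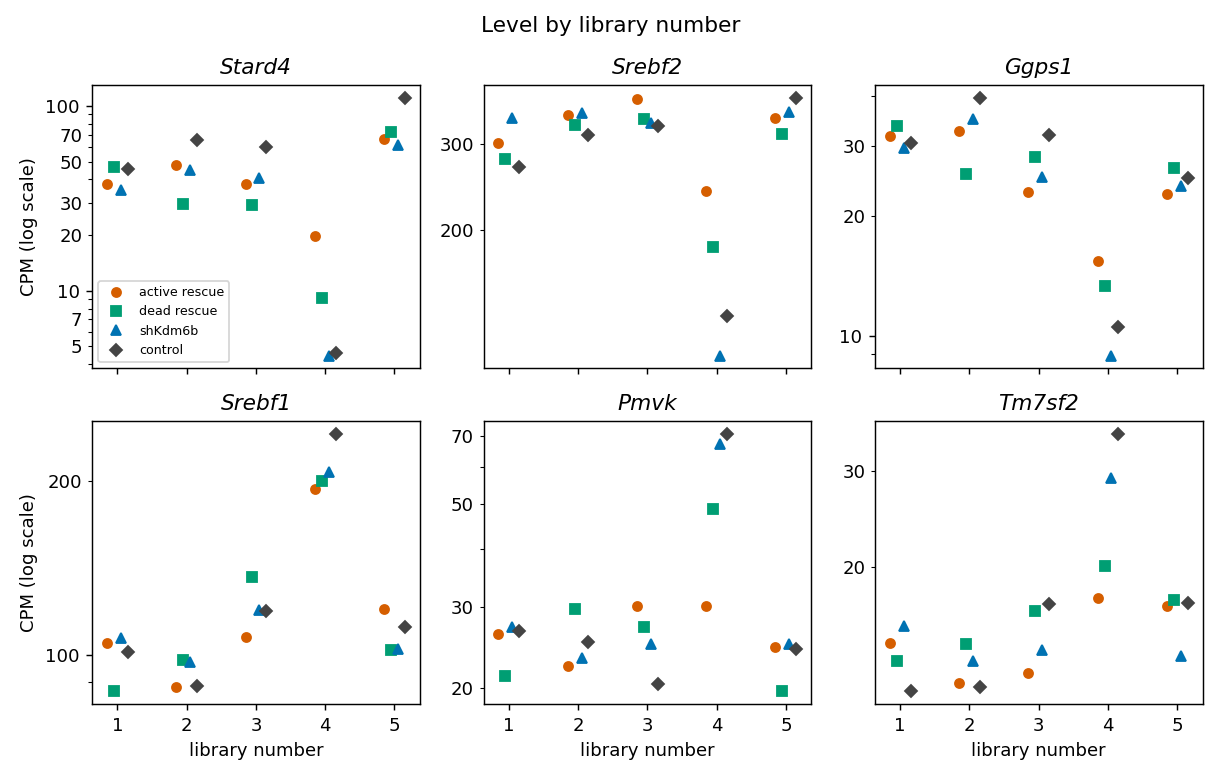
CPM on a log scale of Stard4, Srebf2, Ggps1, Srebf1, Pmvk and Tm7sf2 by library number, with 1 point for each of the active rescue, dead rescue, shKdm6b and control libraries. The first 3 genes are lowest in all libraries numbered 4 and the other 3 highest there, with the active rescue library nearest to the remaining numbers for each gene, though only narrowly for Srebf1.

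Per kilobase of exon, in control libraries, Hmgcs1 was followed by Insig1 at 43.8, Srebf2 at 39.3, Cyp51 at 35.8, Idi1 at 34.1, Sqle at 33.5 and Acat2 at 32.7 CPM per kilobase, and the lowest were Lss at 4.87 and Tm7sf2 at 4.23 CPM per kilobase. The neighbours between Srebf2 and Acat2 in this order lie closer together than the spread between libraries. Exon lengths are from GENCODE M21, and an exon of Tm7sf2 overlaps Vps51 on the same strand, so that its reads may be shared.

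Genes around the pathway were counted by list in shKdm6b against control libraries in the paired fit; none was called in the unpaired fit. Of 11 genes of SREBP processing and sterol sensing, 1 was lower and 0 higher. That gene was Mbtps2, the site-2 protease that makes the final cut of SREBPs, with 23.8, 30.02, 26.8, 11.3 and 25.5 CPM in shKdm6b libraries, against 40.6, 44.1, 39.8, 16.1 and 44.7 CPM in control libraries. Each pair was lower, with a log2 fold change of -0.64 ± 0.12 (adjusted p = 0.00449), although Yy2 shares an exon with it on the same strand and its level is therefore uncertain. Of 13 genes of the liver X receptors and cholesterol efflux, 1 was lower, Abcg4, a neural sterol exporter (-0.41 ± 0.10, adjusted p = 0.0218). Of 14 genes of the isoprenoid branches, 1 was lower, Zmpste24, the protease that trims farnesylated prelamin A (-0.56 ± 0.11, adjusted p = 0.00538). It was also the 1 gene of these lists called in another comparison, active rescue against control (-0.46 ± 0.11, adjusted p = 0.0314). Of 16 genes of fatty acid synthesis and desaturation, 0 were called, with 12 of 16 log2 fold changes negative and a median of -0.15. In these 3 lists with a call, the share was between 7.14% and 9.09% of the genes, and 1 gene in a list of this size is near the 4.14% of all genes called. Among the cell type markers in the same comparison, Cbln3 and Etv1 of granule neurons (-0.77 ± 0.13 and -1.02 ± 0.18), Tmem119 of microglia (-0.67 ± 0.17) and Cspg4 of the oligodendrocyte lineage (-0.59 ± 0.14) were lower and Pax6 of granule neurons was higher (0.41 ± 0.11), with adjusted p between 0.00183 and 0.0426. By list, 6 of 10 granule neuron markers, 6 of 14 astrocyte and Bergmann glia markers, 12 of 12 microglia markers, 8 of 10 oligodendrocyte markers, 7 of 8 fibroblast and meningeal markers and 1 of 5 endothelial markers had negative log2 fold changes, and their part in the sterol gene values was not tested. The microglia sum was lower in only 3 of 5 pairs (mean log2 ratio -0.39 ± 0.77, SD). It was 1640 CPM in control library 4, against 201 to 821 CPM in the other control libraries. Over all genes tested, 52.1% of log2 fold changes were positive.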

How the data were processed

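RNA from 20 cultures of mouse cerebellar granule neurons was sequenced, 5 libraries in each of 4 groups taken from the sample titles. The authors deposited 1 table of estimated counts of reads per gene, made with salmon per the table's name. The build is mm10 per the submitters' processing notes, while versions, annotation and strand setting were not stated. Estimates were rounded to whole numbers. Counts were tested with edgeR 4.0.16 in R 4.3.3: filterByExpr kept 15284 of 24411 genes, then TMM scaling, robust quasi-likelihood tests over all 20 libraries, Benjamini-Hochberg adjustment over all genes tested, and a threshold of 0.05. The unpaired fit was the primary one. A paired fit took the library number as an additive block. In 30 of 30 same-numbered pairs, deviations from the group means correlated above 0.1 (median r 0.608, against -0.205 over 120 other pairs), so the numbers pair the libraries, although the labels do not say what they mark. Fold changes carry standard errors and 95% intervals from the paired fit. Library totals were 14200745 to 21179300 reads. No 2 columns were identical. The fits were tested on simulated data. Alternatives were DESeq2 1.42.0, RLE scaling, no filter, subsets of the numbers, a fit on 2 groups, and leaving out each library. Values per library are given for genes called in either fit, filled up to 12 by the smallest paired p. The 27 genes and the lists around them were chosen with earlier results of these data known. Places and exon lengths come from GENCODE M21, promoters from RefSeq GRCm38.p6.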

Additional observations from a re-analysis of the deposited data

Results flagged for a closer look

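Each of the 12 genes with values per library was checked in 4 groups for a single library far from the other 4, by the gap to its nearest neighbour over the whole range. Of 48 such checks, 4 stood out, each in a library numbered 4, while chance alone marks about 1 in 20 groups. Srebf2 was at 111 CPM in shKdm6b library 4, against 331 to 348 CPM in the other shKdm6b libraries. Lss was at 21.4 CPM in shKdm6b library 4, against 48.7 to 52.7 CPM in the other shKdm6b libraries. Sc5d was at 25.5 CPM in control library 4, against 54.97 to 64.9 CPM in the other control libraries. Hmgcs1 was at 293 CPM in control library 4, against 418 to 443 CPM in the other control libraries. What sets number 4 apart was not tested beyond the marker sums given above.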

How the results depend on the processing

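Of the 27 genes, 0 were called in any of the 6 comparisons by the unpaired fit, and this held with RLE scaling, without the filter, with DESeq2 and with each library left out in turn. With the replicate block (the paired fit), the number called was 1 in shKdm6b and 1 in active rescue against control, and the same 1 and 1 with RLE scaling; with the block and no filter it was 1 in shKdm6b and 0 in active rescue. DESeq2 with the block called 3 (Idi1, Nsdhl and Insig1) in shKdm6b, 2 in active rescue and 1 in dead rescue against control. Over all genes it called 944, 623 and 455. The block fit on the 2 groups compared called 4 in shKdm6b (Fdps, Sc5d, Insig1 and Stard4), where it called 1789 over all genes, and 0 in active rescue. Leaving out the libraries numbered 4 gave 4 in shKdm6b, 1 in active rescue and 2 in dead rescue against control. The shares of all genes called there were 6.5%, 4.6% and 2.48%. Leaving out 1 library gave 0 to 2 in shKdm6b against control over both fits. The block with numbers 1 to 3, or 4 and 5, called 0, with fewer libraries in each fit. The 3 comparisons that do not involve control gave 0 under each setting. Among the 12 genes with values per library, these alternatives gave 2232 values, of which 34 passed the threshold. The unpaired fit called 0 of these genes, so most values could not count as reversing a called direction, and 0 did. The sign turned in 220 values, with neither fit past the threshold. Over all genes, shKdm6b against control had 1 call unpaired and 632 paired; DESeq2 gave 64 and 944, the paired fit on 2 groups 1789, and leaving out 1 library 352 to 648, fewest without shKdm6b library 5. Active rescue against control had 0 unpaired and 299 paired (128 to 384 with 1 library left out), and dead rescue 0 and 181 (65 to 179); DESeq2 gave 29 and 623, and 17 and 455. The cause of these differences was not tested. All 27 genes had 78 reads or more per library, with the lowest value for Stard4 in control library 4, and whether depth limited them was not tested. Stard4 had the widest interval in the paired fit, with a half-width of 0.66 on the log2 scale in shKdm6b against control libraries. In none of the 6 comparisons did the interval of Stard4 or Abca1 lie inside a 1.5-fold change in either direction. These intervals therefore do not bound a change in either gene to less than 1.5-fold.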
